A study of Mus musculus with 96 samples.

Results

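OCT4 binding was followed from 8 h to day 2 of GATA6 induction over the 42403 regions that GATA6 occupied in the study, and the chosen comparison was OCT4 at day 2 against OCT4 at 8 h over all of these regions, with 16 h and day 1 as the steps between. OCT4 was profiled at these times in 8 of the 96 libraries of the series, 2 at each of 8 h, 16 h, day 1 and day 2, by ChIP-seq, which sequences the DNA fragments that an OCT4 antibody pulls down from crosslinked chromatin. All cells were KH2 mouse embryonic stem (ES) cells of mixed C57BL/6 and 129/Sv background that carried a doxycycline (Dox)-inducible GATA6 transgene with an HA tag, grown with serum and LIF on feeder fibroblasts that were depleted before fixation. They were treated with 1 µg/mL Dox for 8 h, 16 h, 24 h or 48 h and differed in nothing else that the labels give. The transgenic line was selected as clones, the libraries of a time came from separate chromatin preparations, and extra-embryonic endoderm (XEN) cells, a primitive endoderm line without Dox, had a single OCT4 library. Across the whole series, the strain labels hold CD1 as well as the mixed background. Whether libraries of different times were prepared or sequenced together is not given in the sources used here, so a batch cannot be told apart from time, and p-values measure only the spread between these preparations.

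OCT4, the product of Pou5f1, is a POU-domain transcription factor that ES cells need to stay pluripotent. It commonly binds next to SOX2 on a composite DNA element, called OCT:SOX here, in which a SOX half-site and an octamer half-site lie side by side. During primitive endoderm (PrE) differentiation GATA6 induces SOX17, another SOX factor, which is known to pair with OCT4 on a version of the element whose half-sites lie 1 base closer, called compressed here. OCT4 stays present for some time in cells that enter the PrE, and the comparison asks where it is found while GATA6 turns the ES cell program into that of the PrE.

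These words are shown because one was more frequent in the regions that lost OCT4 and the other in those that gained it. The canonical word was TTGTNATGCA, and these are the 5 regions with the highest mean OCT4 that hold it in the 300 bases around the GATA6 summit, each named by its nearest gene start, with the word in capitals. Sequences run 5′ to 3′ on the stated strand of mm10 and were read from the RefSeq copy of that build.

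Gm6993, chr12:31229620-31229669, plus strand: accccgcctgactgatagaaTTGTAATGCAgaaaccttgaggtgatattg
Rif1, chr2:52072234-52072283, plus strand: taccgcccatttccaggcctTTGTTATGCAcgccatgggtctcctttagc
Cpn1, chr19:43982070-43982119, plus strand: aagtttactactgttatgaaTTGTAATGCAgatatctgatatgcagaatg
Ncam2, chr16:81481249-81481298, plus strand: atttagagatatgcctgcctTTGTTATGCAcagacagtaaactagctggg
Elk3, chr10:93364589-93364638, minus strand: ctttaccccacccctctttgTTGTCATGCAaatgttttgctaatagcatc

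The compressed word was TTGTATGCA, which lacks the free base between the SOX and octamer parts, and the 5 regions with the highest mean OCT4 that hold it are given in the same way.

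Stmn2, chr3:8123653-8123701, minus strand: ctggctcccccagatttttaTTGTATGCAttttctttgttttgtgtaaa
Magi2, chr5:19566535-19566583, plus strand: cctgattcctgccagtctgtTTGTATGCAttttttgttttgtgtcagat
Foxq1, chr13:31474627-31474675, plus strand: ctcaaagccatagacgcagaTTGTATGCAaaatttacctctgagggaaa
Ntm, chr9:29501745-29501793, plus strand: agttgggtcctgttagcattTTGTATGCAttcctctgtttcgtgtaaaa
Cd247, chr1:165854731-165854779, plus strand: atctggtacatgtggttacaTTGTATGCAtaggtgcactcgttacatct

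OCT4 signal rose at some GATA6-bound regions and fell at others within this time. Of the 42403 regions, 30182 had a mean OCT4 signal of at least 0.5 RPM (reads scaled to the size of the library) over the 4 times and were counted. OCT4 was 2-fold or more higher at day 2 than at 8 h in 6379 of them (21.1%) and 2-fold or more lower in 4068 (13.5%), on the log2(RPM + 0.167) scale that is used for every change given here. The other 19735 regions lay between. The median change of the counted regions was 0.20 on the log2 scale, and the range from percentile 5 to percentile 95 was -1.51 to 1.89. The scaling matters for the balance of gains and losses. All 42403 regions together shifted upwards by a median of 0.17, and relative to this shift 4961 regions were 2-fold higher and 5271 lower, so that gains made up 48.5% of the calls in place of 61.1%.

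The libraries of a time could be compared for most regions. The deposited values are pooled over the libraries of a time, but they split into whole reads of each library in a single way for all but 278 regions. Of the 6273 gains with such a split, both day 2 libraries were above both 8 h libraries in 6271, while this order held for 44.8% of all counted regions that could be split. Of the 4061 losses, both day 2 libraries lay below both 8 h libraries in 4059, against 32.3% of all. The calls were made from the pooled values of these same libraries, so this order was largely set by the 2-fold limit and is a description. In a limma fit over 42125 regions with 2 libraries against 2 libraries, 10059 regions (23.9%) rose and 6658 (15.8%) fell at an adjusted p under 0.05, and 6272 of the 6273 gains and all 4061 losses that could be split were among them. These shared calls rest on the same libraries and are a description too. The median standard error of a region's log2 change was 0.35.

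**Figure D1:**
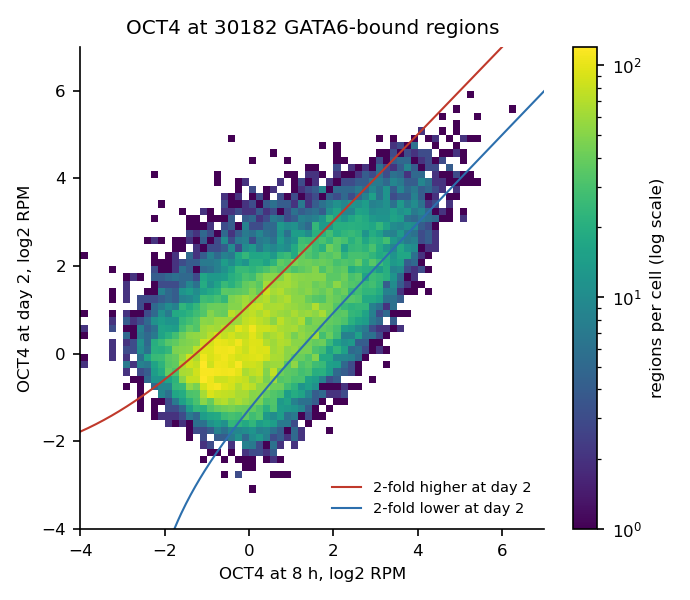
OCT4 signal at 8 h (x axis, log2 RPM) against day 2 (y axis, log2 RPM) over the 30182 counted GATA6-bound regions, where the color of a cell gives the number of regions on a log scale and the lines mark a 2-fold change. The cloud is broad on both sides of the diagonal, with 6379 regions above the upper line and 4068 below the lower line.

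The OCT4 libraries held 12.7 to 37.7 M reads, of which 4.87 to 8.1% fell in the regions, against 2.11 to 2.78% of the input chromatin reads. A counted region had a median of 18 and 15 reads in the 8 h libraries and of 50 and 25 reads in the day 2 libraries, which limits the precision of weak regions. The 8 h libraries correlated at a Pearson r of 0.93 over 29904 regions (log2 scale, a description across regions that are not replicates), and those of day 2 at 0.93. The 16 h libraries stood apart from each other (0.81). The deeper 16 h library correlated at 0.71 to 0.72 with the 8 h libraries and at 0.81 to 0.87 with those of day 1, whereas the shallower one correlated at 0.87 with both 8 h libraries and at 0.61 to 0.79 with day 1. Values at 16 h are therefore given per library where a result rests on them. Across times, correlations of OCT4 at day 2 with OCT4 at 8 h ran from 0.51 to 0.62 over the 4 library pairs, and day 2 resembled day 1 more (0.84 to 0.87). The input itself was 2-fold higher at day 2 in 1.13% of the counted regions and 2-fold lower in 0.454%.

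The strongest OCT4 regions were exchanged. Of the 1000 regions with the highest OCT4 at 8 h, 387 (38.7%) were also among the 1000 highest at day 2, whereas the libraries of a time shared 876 (8 h) and 772 (day 2) of their own 1000 highest. At 8 h, 57.5% of these strongest regions were Transient, the authors' class of regions that GATA6 bound early and then left, and 42.4% were Early&Constant, where GATA6 arrived early and stayed. At day 2, 15.3% were Transient and 82.4% Early&Constant. Regions with a SOX17 peak rose from 55.9 to 93.2% of the strongest 1000, and regions whose chromatin was closed before induction rose from 7.10 to 31.4%. A high-scoring OCT:SOX motif became less common among them, in 40.9% at 8 h and 20.7% at day 2. These lists rank RPM per region without regard to region width, which was the same at every time.

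By 16 h, more of the losses than of the gains had passed 2-fold in the pooled values, where all regions had shifted downwards. In the regions that lost OCT4, the median signal was 3.27 and 2.98 RPM in the 8 h libraries and 0.99 and 1.81 RPM at 16 h. It was 0.87 and 1.49 RPM at day 1 and 1.01 and 0.94 RPM at day 2. At 16 h, 2122 of the 4068 (52.2%) were 2-fold below 8 h in the pooled values, against 10.5% of all counted regions. In the regions that gained OCT4, the median was 0.59 and 0.60 RPM at 8 h, 0.90 and 0.79 RPM at 16 h, 1.86 and 1.77 RPM at day 1, and 1.93 and 2.41 RPM at day 2. At 16 h, 470 of the 6379 (7.37%, against 1.74% of all counted regions) were 2-fold above 8 h, and at day 1 4471 (70.1%, against 19.1%) were. All counted regions together shifted by a median of -0.19 from 8 h to 16 h and by 0.46 from 16 h to day 1, and the 16 h libraries had 4.87 and 5.71% of their reads in the regions, so early losses are counted with this shift and early gains against it. Between day 1 and day 2 only 1.24% of all counted regions rose 2-fold and 1.98% fell 2-fold. By 16 h library, 1064 regions were 2-fold higher and 5582 lower than at 8 h in the deeper one, and 396 higher and 2323 lower in the shallower one. The median change of all regions was -0.22 in the deeper and -0.19 in the shallower one, and that of the regions that lost OCT4 was -1.45 and -0.73. In the regions that gained OCT4 the median change was 0.415 and 0.209. The number of early losses thus depended on the library, and whether losses came before gains cannot be told apart from the shift of all regions.

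Regions that lost OCT4 had more of it before induction than those that gained it. Their median OCT4 was 2.29 RPM before Dox and 3.08 RPM at 8 h, in pooled values. Regions that gained OCT4 had 0.74 RPM before Dox and 0.60 RPM at 8 h, close to their input of 0.48 RPM at 8 h. Of the losses, 62.1% were in the authors' class with pluripotency factor peaks before induction (29.2% of the counted regions) and 37.3% in the class without pluripotency factor peaks (47.7%). Over the first 8 h of Dox the median change was 0.43 in the regions that later lost OCT4 and -0.19 in those that later gained it, each opposite to the later change, against 0.10 over all counted regions. Of all counted regions, 12 (0.0398%) were 2-fold higher at 8 h than before induction and 46 (0.152%) lower, and 44 of the latter were later gains. The step from before Dox and the later change share the 8 h value, so noise at 8 h alone makes them run oppositely. An earlier opposite course can therefore not be told from noise. The 8 h level also enters the calls. Of 5 groups of counted regions ordered by it, the lowest (n = 6048) had 0% 2-fold lower and 50.3% higher. The highest (n = 6034) had 34.0% lower and 4.81% higher, so the difference in level is partly set by the calls.

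**Figure D2:**
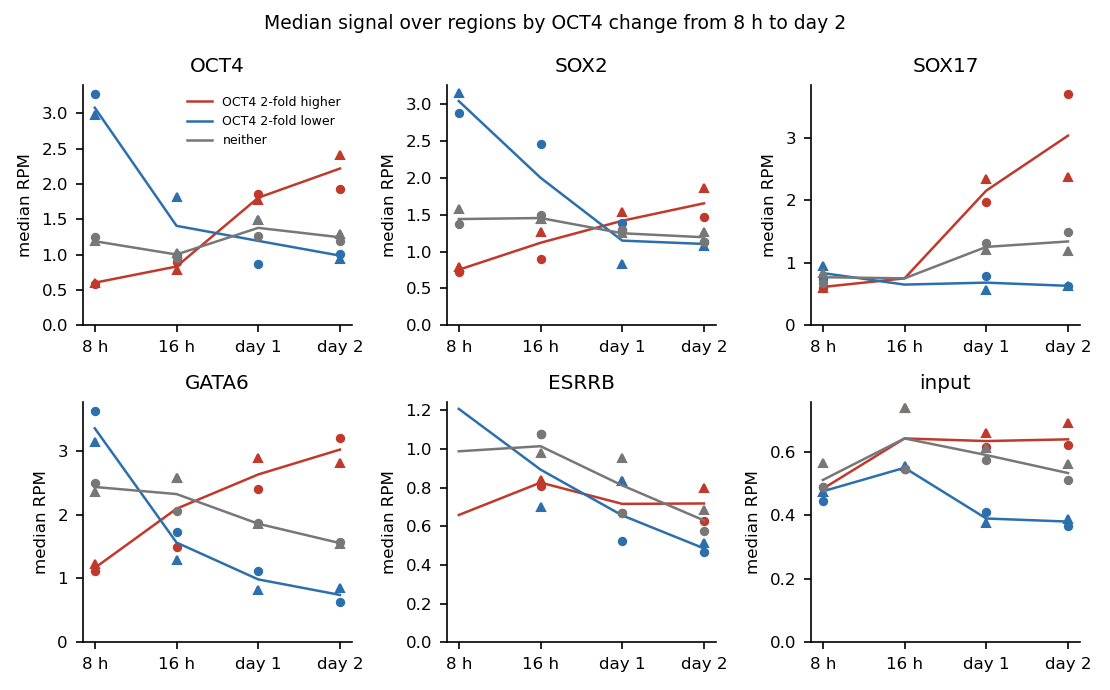
Median RPM of OCT4, SOX2, SOX17, GATA6, ESRRB and input (y axes, from 0) at 8 h, 16 h, day 1 and day 2 (x axes) in regions where OCT4 was 2-fold higher at day 2 (red), 2-fold lower (blue) or neither (grey). Lines are pooled values, circles the deeper and triangles the shallower library where reads could be split. OCT4 and SOX2 fell together in the blue regions and SOX17 rose in the red ones.

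The partner factors changed at the same regions. SOX17, the endoderm SOX factor, rose from a median of 0.61 to 3.04 RPM in the regions that gained OCT4, and it was 2-fold higher in 5533 of the 6379 (86.7%), against 41.2% of all counted regions. GATA6 was 2-fold higher in 3677 of them (57.6%, against 15.6%) and SOX2, the pluripotency SOX factor, in 2579 (40.4%, against 9.75%). ESRRB, an orphan nuclear receptor of naive ES cells, was 2-fold higher in 594 (9.31%, against 2.72%). Gains of OCT4 were thus most often accompanied by SOX17 in number, but also more often by GATA6 and SOX2 than in all counted regions.

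In the regions that lost OCT4, GATA6 left with it. GATA6 fell from a median of 3.35 to 0.74 RPM and was 2-fold lower in 3947 of the 4068 regions (97.0%), against 36.3% of all counted regions. SOX2 fell from 3.04 to 1.10 RPM and was 2-fold lower in 2786 (68.5%, against 14.6%), and ESRRB in 2211 (54.4%, against 23.5%). SOX17 was low there at both times, with 0.83 and 0.63 RPM, and was 2-fold lower in 450 (11.1%, against 1.99%). Over the 30182 regions, the change of OCT4 correlated with that of GATA6 (Pearson r = 0.87, Spearman rho = 0.87), SOX2 (0.86 and 0.85), SOX17 (0.76 and 0.75) and ESRRB (0.57 and 0.56). These are descriptions across regions of the same cell populations, and the change of input correlated with that of OCT4 too (0.44 and 0.44).

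The input moved a little with the calls. Its median went from 0.48 to 0.64 RPM in the regions that gained OCT4 and from 0.48 to 0.38 RPM in those that lost it, and its part in the OCT4 changes was measured by taking the ratio to input of the same time. With that ratio, 4990 regions were 2-fold higher and 3418 lower. Among regions whose input stayed within 1.5-fold, 4821 were higher and 3370 lower.

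Gains with more SOX2 lay almost wholly within those with more SOX17, which was not particular to gains. Over all counted regions, 2752 of the 2943 with SOX2 2-fold higher had SOX17 2-fold higher too. Of the 6379 regions, 2478 (38.8%) had SOX17 and SOX2 both 2-fold higher, 3055 (47.9%) had SOX17 but not SOX2, 101 (1.58%) had SOX2 but not SOX17, and 745 (11.7%) had neither. Read the other way, OCT4 was 2-fold higher in 2478 of the 2752 regions (90%) where both SOX factors rose 2-fold, in 3055 of 9682 (31.6%) where SOX17 but not SOX2 did, and in 745 of 17557 (4.24%) where neither did. Where both rose, no region lost OCT4 2-fold, whereas 4012 regions (22.9%) did where neither rose.

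GATA6 dynamics separated the OCT4 changes. The median change of OCT4 was 0.55 over the 11875 Early&Constant regions, with 0.43 to 0.69 over the 4 pairs of an 8 h and a day 2 library. It was 0.36 (0.31 to 0.49) over the 14243 Late regions, which GATA6 bound only as differentiation went on, and -0.40 (-0.45 to -0.35) over the 16285 Transient regions. Of the counted regions, OCT4 was 2-fold higher in 31.4% of Early&Constant, 38.4% of Late and 6.17% of Transient regions, and 2-fold lower in 2.95, 0.854 and 26.8%. Only 5385 of the 14243 Late regions passed the minimum on OCT4, and a high value at day 2 helps to pass it. By limma over all fitted regions the order of the first classes was the opposite, with 43.0% of Early&Constant, 24.5% of Late and 9.63% of Transient regions higher. Transient regions made up 90.9% of all losses and 45.7% of the counted regions.

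Regions with a SOX17 peak, as the authors called it, had a higher median change of OCT4 than those without in each GATA6 class. OCT4 was 2-fold higher in 34.9% of counted regions with a SOX17 peak and in 7.74% of those without, and 2-fold lower in 2.72 and 24.0%. Within Transient regions the median change was 0.15 (0.04 to 0.24 over library pairs) with a SOX17 peak and -0.49 (-0.55 to -0.44) without. Within Early&Constant regions it was 0.70 (0.56 to 0.85) with and 0.22 (0.13 to 0.30) without. Within Late regions it was 0.55 (0.46 to 0.69) with and 0.19 (0.14 to 0.29) without. The ranges over library pairs did not overlap between regions with and without a SOX17 peak in any of these classes. Of the counted Transient regions with a SOX17 peak, 16.9% were 2-fold higher, under the 21.1% of all counted regions.

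Gains by accessibility before induction depended on which regions were counted. Of the counted regions that were closed in undifferentiated cells, 31.0% gained OCT4 2-fold and 9.25% lost it, against 14.8 and 19.1% of accessible regions and 10.0 and 17.5% of moderately accessible ones. Of all gains 74.3% were in closed regions, which were 50.6% of the counted regions. However, 15280 of the 26003 closed regions passed the minimum on OCT4, which a high value at day 2 helps to pass. Over all regions that could be fitted, limma called 26.6% of closed, 27.5% of accessible and 17.6% of moderately accessible regions higher, so closed regions did not lead. Within Early&Constant regions limma called 46.8% of closed and 40.4% of accessible regions higher, and within Late regions 23.2% and 54.8%. By chromatin state of undifferentiated cells, 35.3% of counted regions in facultative heterochromatin, which carries Polycomb marks, and 33.8% in unmarked naive chromatin were 2-fold higher, but 4745 of the 9475 regions of facultative heterochromatin were counted. By limma over all fitted regions the order was promoters (41.7%), naive chromatin (31.1%) and facultative heterochromatin (26.3%). Losses among counted regions were most frequent in primed enhancers (21.6%) and active enhancers (17.3%), against 13.5% of all counted regions. By limma over all fitted regions their order was the opposite, with 28.1% of primed and 30.4% of active enhancers lower. Of counted promoters, 22.3% were higher, close to the 21.1% of all counted regions, and 2.58% were lower, against 13.5%. Their median change was 0.58, but their input rose too, by a median of 0.28, and the change of the ratio to input was 0.25.

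**Figure D3:**
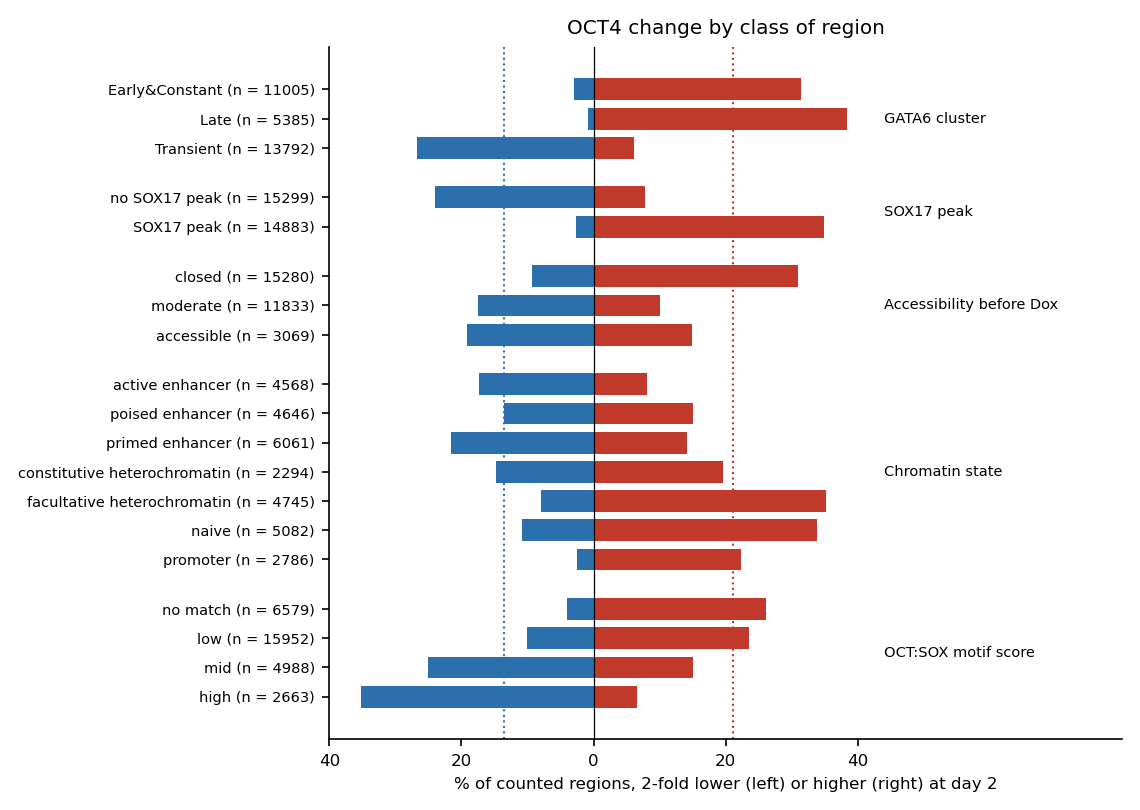
Percentage of counted regions of each class (x axis) with OCT4 2-fold lower (blue, left) or higher (red, right) at day 2 than at 8 h, with dotted lines at the values of all counted regions, 13.5 and 21.1%. Within their own groupings, Transient regions, regions without a SOX17 peak and regions with a high OCT:SOX motif score had the highest percentage of losses.

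The OCT:SOX motif marked losses. The authors scored the best match of each region to the OCT:SOX motif, and 35.3% of the 2663 counted regions with a high score lost OCT4 2-fold while 6.57% gained it. With no match, 4.03% lost and 26.1% gained it. Only 6579 of the 12101 regions with no match passed the minimum, against 2663 of 2834 with a high score. Their median OCT4 at 8 h was 0.43 RPM against 3.10 RPM, which leaves less room for a loss. By limma over all fitted regions, 4.43% with no match fell and 23.9% rose, against 50.85 and 11.4% with a high score. The loss was found at Transient regions, where a high score gave a median change of -0.94 (-1.08 to -0.83) and 47.9% of regions 2-fold lower. At Early&Constant regions the same score gave 0.06 (-0.11 to 0.11), with 14.6% higher and 9.99% lower. At regions with a SOX17 peak a high score gave 0.09 (-0.05 to 0.12), and at those without -0.93 (-1.06 to -0.83). OCT4 thus left canonical motifs where GATA6 was transient or SOX17 had no peak, and the median stayed near 0 where GATA6 remained or SOX17 had a peak. The classes of GATA6 motif score differed little, with 18.3 to 22.9% of regions higher.

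Gains and losses also differed in the spacing of the half-sites. The canonical word TTGTNATGCA, searched on both strands of the 300 bases around the GATA6 summit, was in 262 of the 42403 regions (0.618%), in 103 of the 4068 losses (2.53%) and in 4 of the 6379 gains (0.0627%). The compressed word TTGTATGCA was in 216 regions (0.509%), in 104 of the gains (1.63%) and in 11 of the losses (0.270%). A single region held both. The words were chosen with earlier results of these data known, so these percentages are a description. Each word was in few regions, and most gains and losses held neither.

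OCT4 took opposite courses at these words. At the 262 regions with the canonical word the median OCT4 was 2.94 and 2.83 RPM in the 8 h libraries, 1.39 and 2.24 RPM at 16 h, 1.24 and 2.03 RPM at day 1 and 1.48 and 1.41 RPM at day 2, and 103 of the 239 counted regions (43.1%) were 2-fold lower and 4 higher. At the 216 regions with the compressed word it was 1.05 and 1.00 RPM at 8 h, 1.27 and 1.1 RPM at 16 h, 2.25 and 3.0 RPM at day 1 and 1.95 and 2.59 RPM at day 2, and 104 of 193 (53.9%) were 2-fold higher and 11 lower. The 8 h and day 2 libraries did not overlap at either word. SOX2 fell from 2.62 to 1.43 RPM at the canonical word, while SOX17 was 0.78 RPM at 8 h and 0.73 RPM at day 2. At the compressed word SOX17 rose from 0.66 to 2.68 RPM and SOX2 went from 0.97 to 1.27 RPM.

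The contrast remained within classes of regions. In Early&Constant regions the median change was 0.03 at the canonical word (n = 42) and 1.28 at the compressed word (n = 88). In Transient regions it was -1.01 (n = 194) and 0.15 (n = 70). With a SOX17 peak it was 0.02 (n = 60) and 1.26 (n = 164), and without a peak -0.97 (n = 202) and -0.17 (n = 52). The compressed word thus showed a gain of OCT4 mainly where SOX17 had a peak. Shorter words gave the same order, since TTGTNATG was in 16.1% of losses and 3.10% of gains (6.00% of all regions) and TTGTATG in 3.07% of losses and 6.44% of gains (3.66% of all regions). The octamer ATGCAAAT, which overlaps the canonical element, was in 9.0% of losses and 3.48% of gains (3.72% of all regions). The GATA word AGATAA was in 51.6 and 56.4% (58.1% of all regions) and the SOX word ACAAAG in 42.5 and 35.3% (36.4% of all regions).

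**Figure D4:**
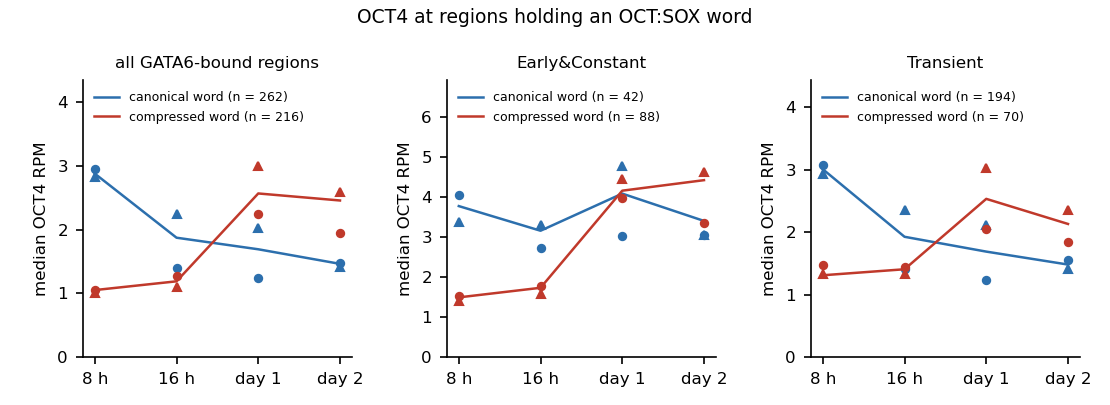
Median OCT4 RPM (y axes, from 0, with a scale of their own) at 8 h, 16 h, day 1 and day 2 (x axes) in regions that hold the canonical (blue) or the compressed (red) OCT:SOX word, over all regions, Early&Constant regions and Transient regions. Lines are pooled values, circles the deeper and triangles the shallower library. Over all regions the canonical word went from 2.87 to 1.46 RPM and the compressed word from 1.05 to 2.45 RPM.

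The sequences printed above come from strongly bound regions and show the range behind these medians. OCT4 rose 2-fold at 3 of the 5 compressed examples. At the region near Foxq1, a forkhead factor gene, it was 4.97 and 6.32 RPM at 8 h and 15.9 and 24.0 RPM at day 2. In the intron of Ntm it was 8.31 and 8.26 RPM and then 17.3 and 19.1 RPM. In the intron of Cd247 it was 0.65 and 0.89 RPM and then 23.8 and 38.3 RPM. The canonical examples changed by -0.85 to 0.57 on the log2 scale and passed 2-fold in neither direction. The largest decrease among them was in the intron of Ncam2 (33.0 and 28.4 RPM at 8 h, log2 change -0.85). The strongest canonical example lies 35.6 kb before the start of Lamb1 and had 38.9 and 38.8 RPM at 8 h and 50.7 and 64.6 RPM at day 2.

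The 10 largest gains among regions with at least 1 RPM on average ran from 17.7-fold to 44.5-fold. All 10 had a SOX17 peak and belonged to the authors' class of ectopic sites of pluripotency factors, which was called with the same OCT4 data and so is no independent evidence. Of all gains, 81.4% had a SOX17 peak and 61.5% were in that class, against 49.3 and 23.1% of the counted regions. The largest was a region of 740 bp at chr9:27171850-27172589, 17 kb before Jam3, a junctional adhesion molecule gene. It had 0.13 and 0.30 RPM at 8 h, 2.19 and 1.18 RPM at 16 h, 7.59 and 8.63 RPM at day 1 and 13.7 and 20.0 RPM at day 2 (log2 change 5.48, SE 0.27, adjusted p = 2.47e-41 by limma). OCT4 there increased at each time in both libraries. These 10 regions were picked by their change in the same libraries, so p-values given for them are a description. The next was the intronic Cd247 region whose compressed word is shown above, chr1:165854041-165855116 (log2 change 5.05, SE 0.22, adjusted p = 3.84e-46 by limma). An intronic region of Esrrg, which encodes an orphan nuclear receptor, went from 0.20 and 0.45 RPM to 8.19 and 11.3 RPM. A region 96 bp before Srgn, the gene of the proteoglycan serglycin, went from 0.13 and 0.22 RPM to 5.99 and 5.88 RPM. The others were nearest to Fabp2, Clic5, Ddx17, Clint1, 1110002E22Rik and Npm2, and 4 of them (Fabp2, Ddx17, 1110002E22Rik and Npm2) had no value per library at day 2. Values under 0.3 RPM at 8 h rest on a few reads, so these fold changes are imprecise.

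The 10 largest losses ran from 7.04-fold to 9.51-fold, and 9 of them had no SOX17 peak, as had 90.1% of all losses and 50.7% of the counted regions. The largest was a region of 1081 bp at chr15:60474652-60475732, 378 kb from Fam84b, with 10.5 and 9.22 RPM at 8 h, 0.80 and 2.04 RPM at 16 h, 1.01 and 2.40 RPM at day 1 and 1.01 and 0.76 RPM at day 2 (log2 change -3.25 in the pooled values, SE 0.24, adjusted p = 3.75e-24 by limma). Most of this loss had happened by 16 h in both libraries. These 10 regions too were picked by their change in the same libraries, so the p-value is a description. A region at chr15:62183471-62184025, 198 kb from Myc, the proliferation factor gene, went from 7.53 and 7.44 RPM to 0.48 and 0.82 RPM. A region 6.70 kb after the start of Sox21, a SOX factor gene, went from 14.0 and 11.4 RPM to 1.75 and 1.35 RPM. An intronic region of Ntn1, which encodes the guidance cue netrin, went from 12.4 and 11.1 RPM to 1.67 and 1.23 RPM. The others were nearest to Drd1, Gfod1, Pknox2, Sipa1l1, Tcim and Amdhd2.

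The region at the start of Amdhd2, 250 bp wide, was unlike the rest. OCT4 there was 6.85 RPM before Dox, 9.70 RPM at 8 h, 10.3 RPM at 16 h, 0.88 RPM at day 1, 1.04 RPM at day 2, 0.94 RPM at day 4 and 12.8 RPM in XEN cells, which lack the GATA6 transgene. GATA6 at 8 h was 0.75 RPM and SOX2 1.73 RPM. The high and low OCT4 libraries thus do not follow differentiation, and no other counted region had its lowest value before Dox, at 8 h, at 16 h and in XEN cells 4-fold above its highest at day 1, 2 and 4. With a 2-fold limit there was 1 more, nearest to Rnasek. Whether these libraries share a preparation was not tested.

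Around PrE genes, gains of OCT4 were more frequent than over all counted regions. For each gene of lists chosen with earlier results known, the region with the highest mean OCT4 within 50 kb of the gene's start was taken, which did not use the change. Of 6 PrE transcription factor genes, 4 had OCT4 2-fold higher, 1 lower and 1 neither, with a median log2 change of 1.73, against 0.17 over all regions. Of all counted regions within 50 kb of these genes, 27 of 45 (60.0%, against 21.1% of all counted regions) were higher and 2 (4.44%, against 13.5%) lower. Gata6 itself had 2.88 and 1.93 RPM at 8 h and 6.04 and 6.52 RPM at day 2 at a region of 2305 bp whose GATA6 summit lies 945 bp after its start (log2 change 1.33). Gata4, the related endoderm GATA factor gene, had 4.58 and 4.09 RPM at 8 h and 19.7 RPM in the pooled day 2 value at a region 6.29 kb after its start.

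The largest rises of the transcription factor list were at Foxa2 and Sox17. Foxa2, a forkhead factor of endoderm, had 1.11 and 0.67 RPM at 8 h and 5.75 and 8.46 RPM at day 2. At Sox17, 40.3 kb before the gene, OCT4 was 2.16 and 1.93 RPM at 8 h and 10.4 and 14.3 RPM at day 2 (log2 change 2.5). In both regions SOX17 was more than 2-fold higher as well, for example from 1.71 to 18.6 RPM at Sox17.

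Sox7 and Hnf4a differed from the others. Sox7 encodes another SOX factor of the PrE, and its region 7.01 kb before the gene holds a high-scoring OCT:SOX motif and no SOX17 peak. OCT4 there was 12.4 and 12.9 RPM at 8 h and 5.03 and 5.88 RPM at day 2 (log2 change -1.19, SE 0.19, adjusted p = 1.03e-07 by limma), although 3 weaker regions within 50 kb rose 2-fold. The region of Hnf4a, a nuclear receptor gene of visceral endoderm, had 4.19 and 4.02 RPM at 8 h and 2.99 and 3.17 RPM at day 2 (adjusted p = 0.180).

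Around basement membrane genes, whose products the PrE secretes, 3 of 9 regions were 2-fold higher, none was lower and 6 lay between, with a median change of 0.84. Of all counted regions around these 10 genes, 28 of 81 (34.6%, against 21.1%) were higher. The laminin gene Lama1 had 1.31 and 1.79 RPM at 8 h, 10.5 and 7.65 RPM at day 1 and 13.7 RPM in the pooled day 2 value (log2 change 3.01). The perlecan gene Hspg2 had 9.36 and 7.36 RPM at 8 h and 27.6 and 31.9 RPM at day 2. Col4a1 and Col4a2, collagen IV genes that share a promoter, also shared a region, with 9.68 and 9.67 RPM at 8 h and 10.7 and 16.2 RPM at day 2. At the region of Lamb1 and that of the third laminin gene Lamc1, OCT4 was already high at 8 h and rose by less than 2-fold.

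Of 7 regions at receptor and endocytosis genes, 5 were 2-fold higher and 2 lay between (median change 1.07), and 20 of 39 counted regions around these genes were higher (51.3%, against 21.1%). Pdgfra, the PDGF receptor gene and a surface marker of the PrE, had 13.1 and 12.1 RPM at 8 h and 22.5 and 29.1 RPM at day 2 at a region 5.63 kb before its start. The cubilin gene Cubn had 4.12 and 4.83 RPM at 8 h and 20.2 RPM in the pooled day 2 value. Amn, which encodes the membrane partner of cubilin, had 2.94 and 2.83 RPM at 8 h and 7.15 and 7.23 RPM at day 2. The region of Lrp2, the megalin gene, had 5.04 and 4.61 RPM at 8 h and 5.46 and 8.40 RPM at day 2 and did not pass the test (adjusted p = 0.0632 by limma).

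Of 9 regions at other PrE and yolk sac genes, 5 were 2-fold higher, none was lower, 3 lay between and that of Fst was under the minimum (median change 1.25), and 20 of 42 counted regions around these genes were higher (47.6%, against 21.1%). Ihh, a hedgehog ligand gene of visceral endoderm, had 0.92 and 0.60 RPM at 8 h and 3.07 and 5.17 RPM at day 2. Ttr, the transthyretin gene, had 1.24 and 1.79 RPM at 8 h and 4.72 and 7.99 RPM at day 2. Dkk1, a secreted WNT inhibitor gene, had 7.85 and 9.97 RPM at 8 h and 24.7 RPM in the pooled day 2 value. Krt8 and Krt18, keratin genes, shared a region that had 6.69 RPM at day 1 and 3.45 RPM at day 2 and so lay between.

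Around pluripotency genes, no common direction was seen. Of 27 regions at 29 genes, 3 were 2-fold higher, 6 lower and 18 between, with a median change of 0.06. Of all counted regions within 50 kb, 30 of 164 (18.3%) were higher and 12 (7.32%) lower, which is close to or under the 21.1 and 13.5% of all counted regions. The 6 that fell were at Sox2, Esrrb, Klf2, Tbx3, Mycn and Nr0b1. At Sox2, 4.05 kb before the gene, OCT4 was 14.3 and 12.5 RPM at 8 h, 6.12 and 7.0 RPM at 16 h, 4.95 and 9.83 RPM at day 1 and 4.74 and 4.94 RPM at day 2 (log2 change -1.44, SE 0.19, adjusted p = 3.20e-10 by limma). At Klf2, a Krüppel-like factor gene of naive cells, it was 24.9 and 22.5 RPM at 8 h, 5.57 and 14.4 RPM at 16 h and 10.8 and 7.64 RPM at day 2. At Esrrb it was 3.66 and 3.27 RPM at 8 h and 0.98 and 1.23 RPM at day 2.

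The regions of Tbx3 and Mycn were lower than at 8 h in both libraries of each later time. At Tbx3, a T-box factor gene, OCT4 was 16.1 and 15.3 RPM at 8 h, 4.38 and 9.99 RPM at 16 h, 2.90 and 7.54 RPM at day 1 and 7.58 and 6.82 RPM at day 2, and the pooled values of 16 h and day 2 were nearly the same (7.18 and 7.20 RPM). At Mycn it was 19.8 and 18.8 RPM at 8 h, 7.36 and 12 RPM at 16 h, 6.78 and 16.3 RPM at day 1 and 9.04 and 8.40 RPM at day 2. Of the 6 regions that fell, that of Mycn had a SOX17 peak (4.01 RPM at 8 h and 4.46 RPM at day 2) and the other 5 had none.

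Pluripotency genes also held gains. The strongest OCT4 region around Klf4, a Krüppel-like factor gene, lies 31.8 kb before its start and went from 1.57 and 0.97 RPM at 8 h to 5.88 and 8.81 RPM at day 2 (log2 change 2.39, SE 0.25, adjusted p = 2.43e-15 by limma), while SOX17 there rose from 0.62 to 7.81 RPM. Klf5 had 10.7 and 9.97 RPM at 8 h and 24.7 RPM in the pooled day 2 value. Stat3, the effector gene of LIF signalling, had 1.70 and 1.86 RPM and then 4.05 and 4.35 RPM. At Pou5f1, the gene of OCT4 itself, the upstream region kept its signal with 9.49 and 10.3 RPM at 8 h and 15.8 RPM in the pooled day 2 value, and at Nanog it was 5.76 and 4.09 RPM and then 7.84 and 6.87 RPM.

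The region of Nr0b1, which encodes the nuclear receptor DAX1, lies on its coding exon and stood apart. OCT4 there was 14.1 RPM before Dox, 5.89 and 4.69 RPM at 8 h, 33.4 and 36.5 RPM at 16 h, 1.49 and 1.94 RPM at day 1 and 1.83 and 1.59 RPM at day 2. The signal of ESRRB was 31.6 RPM before Dox and 106 RPM at 8 h. That of SOX17 was already 9.20 RPM before Dox and was 16.9 RPM at 8 h, while input at 8 h was 0.89 RPM. Its rise at 16 h and its drop by day 1 were shared by no other listed gene, and what sets them was not tested.

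Among the other lists the changes were small. Of 4 regions at formative and primed pluripotency genes (Otx2, Fgf5, Dnmt3b and Pou3f1), none passed 2-fold, and Sox3 had no region within 50 kb. Of 7 regions at targets of FGF signalling, that of Etv4, an ETS factor gene, dropped to 2.17 and 2.0 RPM by day 2, having had 11.3 and 10.1 RPM at 8 h (log2 change -2.27, SE 0.22, adjusted p = 3.97e-17 by limma), and 6 lay between. None of the 39 counted regions around these 7 genes was 2-fold higher (21.1% of all counted regions were). Lower were 3 of them (7.69%), under the 13.5% of all counted regions.

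**Figure D5:**
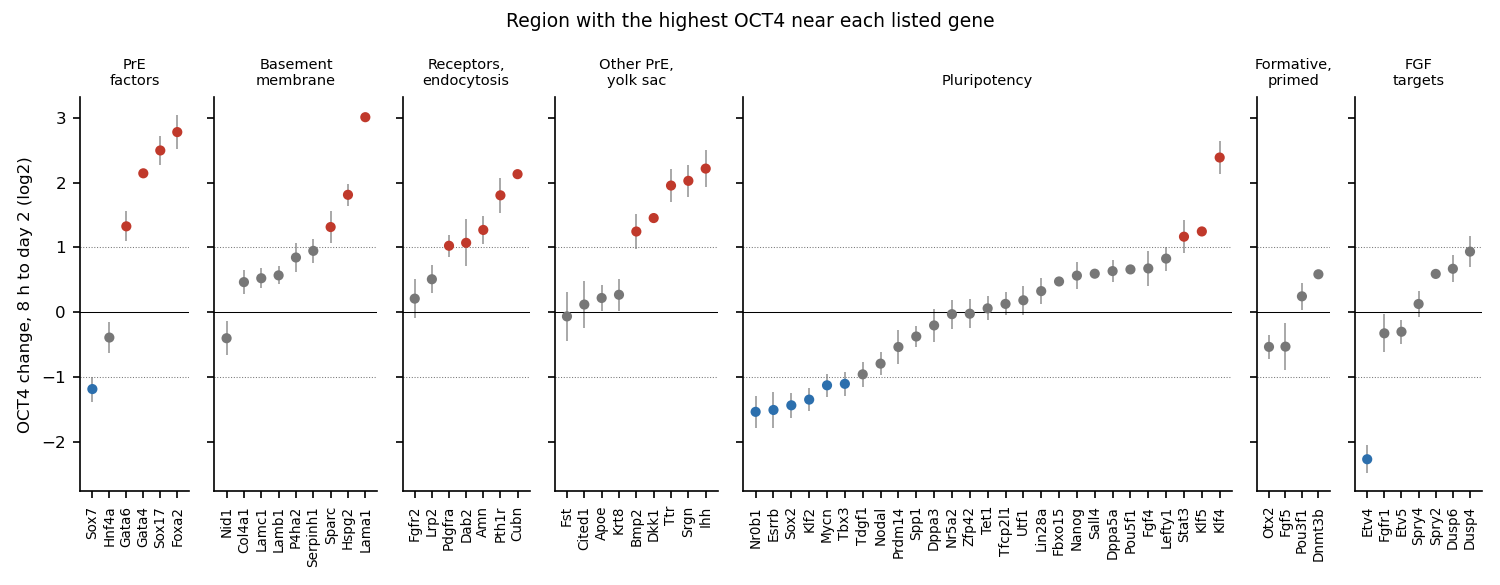
Log2 change of OCT4 from 8 h to day 2 (y axis) at the region with the highest mean OCT4 within 50 kb of each listed gene (x axis, ordered by change within each list), with bars for the limma standard error where reads could be split. Red points were 2-fold higher, blue 2-fold lower, and dotted lines mark 2-fold. PrE factors had 4 of 6 regions above the upper line and pluripotency genes 3 of 27.

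By day 4 the gains of OCT4 had mostly been kept and the losses had gone further. In the 6379 regions that gained OCT4 by day 2, the median signal was 2.26 and 2.12 RPM in the day 4 libraries, the median log2 change from day 2 was -0.09, 403 (6.32%, against 4.56% of all counted regions) were 2-fold higher and 804 (12.6%, against 24.1%) 2-fold lower. In the 4068 regions that lost it, the median was 0.51 and 0.46 RPM, and 1705 (41.9%) fell by another 2-fold. In XEN cells, with a single OCT4 library and no Dox, the medians were 0.67 and 0.40 RPM. At the compressed OCT:SOX word OCT4 was 1.68 RPM at day 4 and at the canonical word 0.65 RPM, in pooled medians, and Cd247, whose region holds the compressed word, went from 31.1 RPM at day 2 to 4.45 RPM at day 4.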

How the data were processed

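OCT4 ChIP-seq libraries at 8 h, 16 h, day 1 and day 2 were compared over the GATA6-bound regions of the deposited table (mm10), with the other factors and input beside them. The authors trimmed reads with cutadapt, aligned them with bowtie2, kept those of high mapping quality, removed duplicates by molecular identifier, called peaks with MACS2 on merged replicates and counted reads per region with bamsignals. The deposited values are RPM, pooled by the authors over the libraries of a condition. The motif score of each region was deposited by the authors from FIMO, and the classes of regions are theirs too. A column with the authors' own DESeq2 outcome after Oct4 knock-down was not used, nor were 14 columns of per-sample values from other libraries.

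Change was log2(RPM + p) at day 2 minus 8 h, with p at percentile 5 of the non-zero OCT4 values (0.167 RPM). Regions averaging 0.5 RPM or more over the 4 times were counted, and a change of 2-fold was a call, without a test since columns are pooled. Each pooled value was split into whole reads of its 2 libraries, and limma 3.58.1 (R 4.3.3) was fitted on log2(RPM + p) per library with Benjamini-Hochberg adjustment. Pooled values are never at 0, their lowest being 1 read in each library. The split and the fit were tested on simulated data. Python 3.11.15 with pandas 2.3.3 was used otherwise. Pseudocounts of the other factors followed the same rule.

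The 10 largest changes each way among regions with at least 1 RPM were named, and the region with the highest mean OCT4 within 50 kb of each listed gene, of which 1 is not reported here. Members, lists and words were chosen with earlier results of these data known. Genes came from GENCODE M21. Libraries are called deeper and shallower, given in that order, because the columns carry no replicate number. The alternatives tried were other pseudocounts, minimums, folds, scalings and steps, the ratio to input, and each library left out. Those added after seeing the data were 1 read subtracted from each library, regions of stable input, a fold beside the limma threshold, and libraries that do not overlap.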

Additional observations from a re-analysis of the deposited data

How the results depend on the processing

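With a pseudocount 10 times larger, 1486 regions were 2-fold higher and 1079 lower. With 16 h in place of 8 h, 440 regions were lower. At 1.5-fold 10678 and 7144 regions were called, at 4-fold 1258 and 384, by limma without a fold 10059 and 6658, and by libraries that do not overlap 13384 and 9663. Leaving out 1 library gave 5245 to 7470 higher and 3805 to 4495 lower regions. The median change of Early&Constant regions was 0.27 with the larger pseudocount, that of Late regions 0.092 with it and 0.78 over regions of 0.5 RPM or more, and that of Transient regions -0.16 with it and -0.57 relative to all regions. Relative to the shift of all regions the sign turned for regions outside pluripotency factor peaks (-0.036), accessible regions (-0.13, and -0.12 as a ratio to input), poised enhancers (-0.089), constitutive heterochromatin (-0.056), SOX17 motif scores low (-0.040) and none (-0.029), and GATA6 motif scores high (-0.053) and none (-0.021). With a mean, a high ESRRB motif score had 0.037, and from 16 h Tbx3 had 0.0031. The sign also depended on the library pair for accessible regions (-0.096 to 0.12) and for a high ESRRB motif score (-0.088 to 0.019). The cause was not tested. Other class medians and named regions kept their direction under the alternatives run. No paired analysis was possible because the columns carry no replicate numbers. Weak regions rest on a few reads per library.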

Other observations

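OCT4 at 8 h shared 125 of its 1000 strongest regions with day 4, and OCT4 at day 2 shared 496. The calls were spread over the genome. Over the 20 chromosomes with at least 100 counted regions, 18.0 to 25.1% of regions were higher and 11.1 to 19.8% lower.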
